A study of Mus musculus with 6 samples.

Results

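Secreted Wnt antagonists are extracellular proteins that keep Wnt ligands from activating their receptors. The set described here comprises 9 mouse genes. They are the 5 secreted frizzled-related protein genes Frzb, Sfrp1, Sfrp2, Sfrp4 and Sfrp5, 3 of the Dickkopf genes (Dkk1, Dkk2 and Dkk3), and Wif1. Dkk4, a further Dickkopf gene, is not in the set and is given below with the other extracellular inhibitors. Members were taken by gene symbol from the array platform's annotation, as every probe set listed with only 1 of these symbols. All 9 genes were found, among 18193 singly annotated genes, and were read by 17 of 45037 probe sets; 5 genes had more than 1 probe set and 4 had 1.

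Wnt ligands are lipid-modified glycoproteins that bind Frizzled receptors, together with the co-receptors Lrp5 or Lrp6 in the beta-catenin branch and with Ror2 or Ryk in beta-catenin-independent branches. Frizzled-related proteins carry a cysteine-rich domain like that of the Frizzled receptors and bind Wnt ligands outside the cell, and Wif1 binds Wnt ligands through a domain of its own. Dkk1 and Dkk2 act on the receptor side, by binding Lrp5 and Lrp6, with Kremen proteins as partners; Dkk3 is a divergent family member whose role in Wnt signalling is less settled. In the developing pancreas, Wnt ligands and their antagonists pass between the branching epithelium and the mesenchyme around it.

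The 6 arrays held 3 Hox6 null pancreas samples from Bl6 mouse embryos at E12.5, a stage named by days of embryonic development, and 3 wild type control pancreas samples of the same strain and stage. Hox6 null stands for loss of the paralogous homeodomain factor genes Hoxa6, Hoxb6 and Hoxc6; the labels do not say how each gene was disrupted, how many embryos went into a sample or what sex they were. RNA of whole pancreas, amplified from 10 ng, was hybridised to 1 Affymetrix array per sample, so that fewer cells of a type and less RNA per cell cannot be told apart. Levels are log2 expression values per probe set, on which 1 unit is a factor of 2; the number of arrays limits the precision, and the values have a floor set by background, near which differences are understated.

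Null arrays varied more among themselves (Pearson correlations of 0.980 to 0.987 across probe sets) than control arrays (0.994 to 0.995). The null arrays stood apart from each other in some markers. The mean log2 level of 16 epithelial marker genes was 9.69 in null 1, 9.53 in null 2 and 8.73 in null 3, against 8.63 to 8.73 in the controls. The mean of 10 stomach and intestine markers was highest in null 3, at 5.24, and lay at 4.60 to 4.77 in the other 5 arrays. Of these, Sox2, chosen after its values were seen, read 5.40 in null 3 and 2.54 to 3.12 in the other 5 arrays. Six2 (7.77) and Barx1 (10.70) were also highest in null 3. Cdx1 was lowest there (3.23, against 3.27 to 3.68 in the other 5 arrays). Cdx2 (4.26) and Isx (3.39) in null 3 were below all other arrays but control 3, so the list mean does not stand for each of its genes. Hoxb6 had log2 levels of 8.25, 8.71 and 8.91 in null arrays and of 8.78, 8.97 and 9.36 in control arrays (adjusted p = 0.393 over all probe sets, limma). Hoxc6 was higher on average in null arrays on all 3 of its probe sets, by 0.73, 0.47 and 0.13. On the probe set with the largest of these differences it read 4.63, 4.59 and 5.38 in null arrays and 4.24, 3.91 and 4.25 in control arrays, without overlap (adjusted p = 0.253, limma). Hoxa6 was not analysed here. A probe set that lies outside the disrupted part would not show the deletion, so these values do not check the labels. Samples are labelled as biological replicates, and p-values measure the spread between them.

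Frzb had the largest difference of the 9 genes and was lower in the Hox6 null pancreas on both of its probe sets, while no member passed the test. Of the 17 probe sets, 0 passed an adjusted p of 0.05 (limma, Benjamini-Hochberg over all probe sets), where 0.00222% of all probe sets did. With 1 probe set per gene, 0 of 9 genes passed, where 0.0715% of all genes did. At an unadjusted p under 0.05 there were 3 member probe sets (15.0% of all probe sets) and 2 member genes, Frzb and Sfrp1 (17.0% of all genes). Null and control arrays did not overlap for 5 of 17 probe sets, 2 of Frzb and 3 of Sfrp1, all of them lower in null arrays; over all probe sets 9.89% were lower without overlap. By mean level 7 of the 9 genes were lower in null pancreas, as were 44.0% of all genes, and 1, Frzb, was lower by over 1 log2 unit, as were 0.638% of all genes. The median difference of the 9 genes was -0.24 on the log2 scale, beside 0.033 over all genes.

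**Figure D1:**
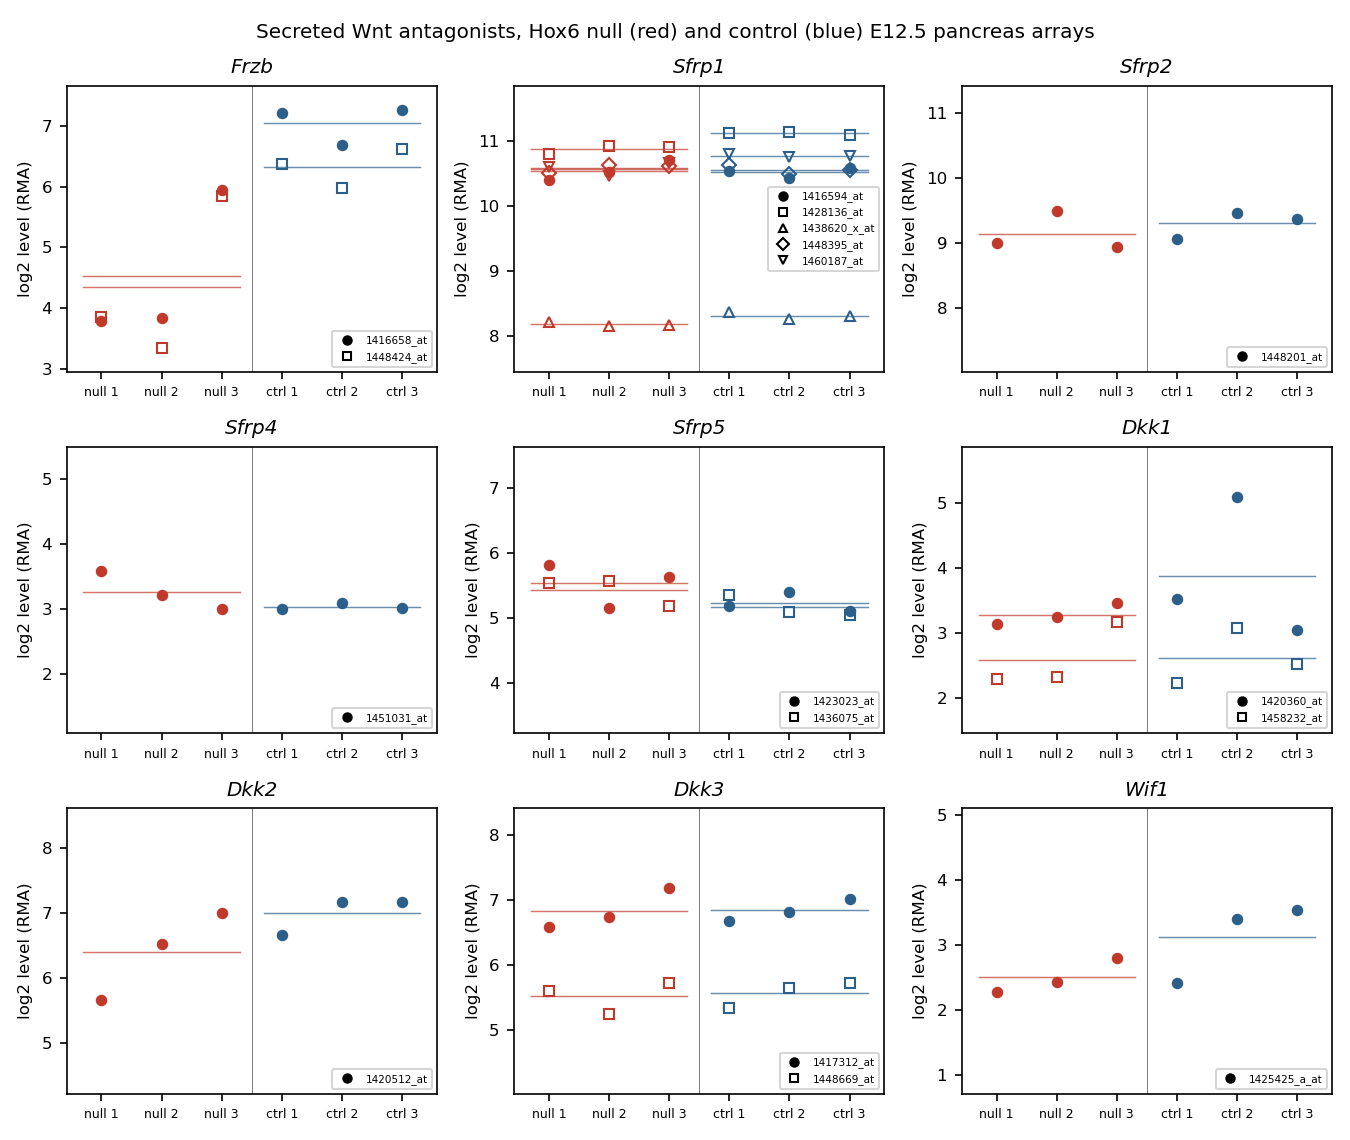
Log2 level (vertical axis, array values) of each probe set of the 9 genes in the 3 Hox6 null arrays (red, left) and the 3 control arrays (blue, right); marker shapes are probe sets and horizontal lines are group means. Frzb lies at 3.35 to 5.94 in null arrays and 5.98 to 7.26 in control arrays, and of the other 8 genes Sfrp1 has probe sets whose arrays do not overlap, while the other 7 have overlapping arrays.

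Frzb, also called Sfrp3, encodes a frizzled-related protein best known from cartilage and limb mesenchyme. Its first probe set (1416658_at) read 3.79, 3.84 and 5.94 in null arrays 1, 2 and 3, against 7.21, 6.69 and 7.26 in control arrays 1, 2 and 3. Null 1 and null 2 were far below every control and null 3 lay between them and the controls. The means were 4.53 ± 1.23 in null and 7.06 ± 0.31 in control arrays (SD, n = 3 each). The difference was -2.53 ± 0.54 (SE), with a 95% interval of -3.80 to -1.26, which is a 5.78-fold lower level in null pancreas. It had an adjusted p of 0.197 over all probe sets and 0.157 over genes (limma).

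The second Frzb probe set (1448424_at) read 3.86, 3.35 and 5.85 in null arrays, against 6.37, 5.98 and 6.62 in control arrays. The order of the arrays was alike, but here null 3 lay just under the lowest control. The difference was -1.96 ± 0.58 (SE), with a 95% interval of -3.33 to -0.60, and the adjusted p was 0.244 over all probe sets (limma). On their mean over all arrays, 47.4% and 40.8% of all probe sets were dimmer than these. In null 1 and null 2, however, both probe sets read only 3.35 to 3.86, a dim range close to that of Sfrp4 (3.0 to 3.59).

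The size of the Frzb difference rested on null arrays 1 and 2. Without null 3 the differences were -3.24 and -2.71, and both probe sets passed (adjusted p = 0.0131 each, limma, all probe sets), in a fit in which 4.22% of all probe sets passed. With arrays weighted by their quality, neither probe set passed over all probe sets, at -2.84 and -2.35 (adjusted p of 0.0680 and 0.0927, limma), where 0.0910% of all probe sets did. In the weighted fit over genes the difference was -2.90 and Frzb passed (adjusted p = 0.0338, limma), as did 0.852% of all genes. Without both null 1 and null 2, an alternative chosen after seeing the data, null 3 alone differed from the controls by -1.11 and -0.47, with adjusted p of 0.170 and 0.459 (limma); the lone null array is then assumed to vary like the controls.

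**Figure D2:**
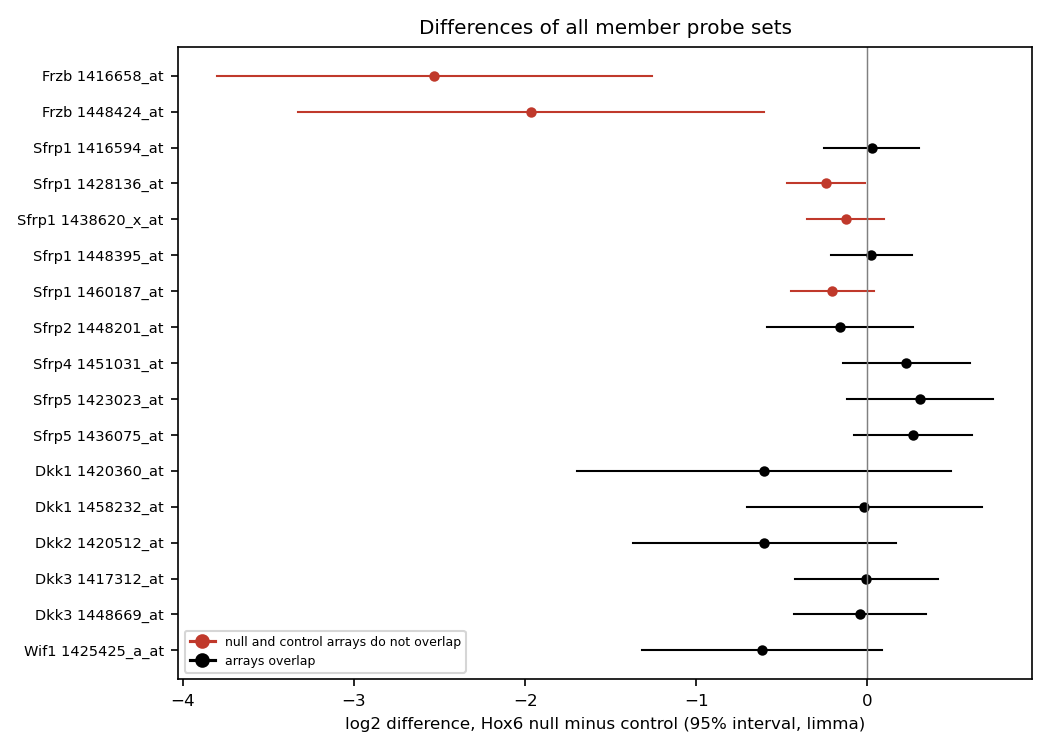
Log2 difference, Hox6 null minus control (horizontal axis), of each of the 17 probe sets with its 95% interval (limma); red marks probe sets whose null and control arrays do not overlap. Both Frzb intervals lie wholly below 0, at -3.80 to -1.26 and -3.33 to -0.60, and 1 of the other 15 intervals, that of Sfrp1 1428136_at, also leaves out 0.

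The sequences just before the gene start are shown for Frzb, Wif1 and Dkk1, the 3 members with the largest mean differences among the 6 members that had a window in the RefSeq promoter table (GRCm38.p6). Each is the 250 bases before the annotated start, read 5′ to 3′ on the gene's strand: chr2:80447397-80447646, minus strand, for Frzb, chr10:121033754-121034003, plus strand, for Wif1 and chr19:30549497-30549746, minus strand, for Dkk1. Capitals mark matches to CTTTGA or CTTTGT on either strand, the core that TCF and LEF factors, the nuclear partners of beta-catenin, bind.
Frzb: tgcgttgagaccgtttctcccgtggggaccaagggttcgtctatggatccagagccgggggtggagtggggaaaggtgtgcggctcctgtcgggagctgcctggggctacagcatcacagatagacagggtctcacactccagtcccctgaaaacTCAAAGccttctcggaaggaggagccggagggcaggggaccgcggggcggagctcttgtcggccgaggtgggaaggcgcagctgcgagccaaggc
Wif1: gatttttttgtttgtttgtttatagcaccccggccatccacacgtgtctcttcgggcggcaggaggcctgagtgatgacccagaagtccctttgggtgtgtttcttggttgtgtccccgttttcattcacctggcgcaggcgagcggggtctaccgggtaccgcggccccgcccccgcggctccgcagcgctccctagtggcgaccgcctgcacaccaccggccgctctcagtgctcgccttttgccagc
Dkk1: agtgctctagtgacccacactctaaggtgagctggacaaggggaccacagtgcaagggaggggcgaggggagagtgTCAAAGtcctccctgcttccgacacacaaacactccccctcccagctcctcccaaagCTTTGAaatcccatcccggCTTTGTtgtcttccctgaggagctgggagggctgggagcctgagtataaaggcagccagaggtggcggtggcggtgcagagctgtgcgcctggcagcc
Frzb held 1 such match, on the opposite strand at 95 to 90 bases before the start. Dkk1, known as a target of beta-catenin signalling, held 3, of which CTTTGT lay at 98 to 93, CTTTGA at 117 to 112 and CTTTGA on the opposite strand at 174 to 169 bases before the start. Wif1 held 0. Of the members whose sequence is not shown, Dkk2 held 1, CTTTGT at 80 to 75 bases before the window's end, and Sfrp2 and Sfrp5 held 0. Of all 32851 windows of this length, 27.6% held at least 1 match to either word. The homeodomain core TAAT, searched on both strands, was in 54.9% of all windows and in 1 of the 6 member windows, that of Sfrp2. The Sfrp2 window (chr3:83766071-83766320) lies inside the annotated gene (83765750-83774314, plus strand), so this match is not upstream of the gene's outer start. The Dkk2 window also runs past its gene start. The palindrome TAATTA, which contains that core, was in 4.84% of all windows, and the Pbx-Hox composite word TGATNNAT in 7.68%; neither was in any of the 6 member windows. A match is a run of letters and not a measured binding site.

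Marker genes of other cell types differed between the arrays along with Frzb. Of 10 mesothelium markers, genes of the cell layer that covers the organ, 8 were lower on average in null arrays and 0 passed over all genes. Their mean log2 level was 6.23, 6.31 and 6.86 in null arrays, against 7.25, 7.22 and 7.48 in control arrays. Null 1 and null 2 were again lowest, null 3 was between, and the groups did not overlap. Among its defining genes, Upk3b had 8.92, 8.78 and 9.18 in null and 9.56, 9.49 and 9.72 in control arrays, and Wt1 had 6.70, 7.22 and 8.65 in null and 8.82, 8.61 and 8.84 in control arrays. Msln was dim throughout, at 2.81 to 3.99 in null and 3.08 to 3.62 in control arrays.

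Of 18 mesenchyme markers, 17 were lower on average in null arrays and 0 passed, with list means of 8.26, 8.41 and 8.50 in null and 8.75, 8.86 and 8.87 in control arrays. Macrophage markers, of which 10 of 10 were lower and 2 passed (Ctss and Adgre1), had list means of 7.58, 7.86 and 7.97 in null and 8.56, 8.47 and 8.54 in control arrays. Epithelial markers ran the other way, with 15 of 16 higher on average in null arrays and 0 past the threshold. Of 10 markers of cartilage, a tissue in which Frzb is well known, 8 were higher on average in null arrays, with list means of 6.97, 6.74 and 6.45 in null and 6.41, 6.42 and 6.35 in control arrays. Some genes are on several lists. Sox9 is on both the cartilage and the epithelial list, Krt19 on the epithelial and the mesothelium list, and Barx1 on the mesenchyme and the stomach and intestine list. Of 6 spleen primordium markers, 6 were lower on average and 0 passed, with list means of 8.10, 8.16 and 9.17 in null and 9.24, 8.92 and 9.22 in control arrays; null 1 and null 2 were below every control and null 3 was within the control range. Of 12 endothelial markers, 12 were lower on average and 1 passed, Tek, an angiopoietin receptor gene, with list means of 7.66, 7.83 and 8.09 in null and 8.32, 8.39 and 8.44 in control arrays. The spleen primordium list shares Wt1 with the mesothelium list and Tcf21 with the mesenchyme list. Smooth muscle markers (5 of 7 lower) had list means of 6.14, 6.13 and 5.99 in null and 6.54, 6.53 and 6.23 in control arrays. Blood markers (6 of 7 lower) had 9.33, 8.83 and 9.51 in null and 9.65, 9.59 and 9.60 in control arrays. Neural markers (6 of 7 higher) had 6.40, 6.16 and 6.59 in null and 6.25, 5.96 and 5.98 in control arrays. On each of these lists 0 passed. The part of any of these cell types from macrophages onward, or of cartilage, in the Frzb difference was not tested.

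The epithelial, mesenchyme and mesothelium levels were each entered into the fit as a covariate. With the mean epithelial level, the Frzb differences were -1.04 and -0.42 (adjusted p of 0.340 and 0.784, limma). With the mean mesenchyme level they were 0.0051 and 0.39 (0.999 and 0.964), and with the mesothelium level, added after seeing the data, 0.21 and 0.92 (0.937 and 0.690). The mesenchyme and mesothelium levels did not overlap between null and control arrays, so that these levels and the genotype cannot be told apart with 6 arrays. The mesothelium list also holds Gpm6a and Rspo1, which were among the genes most like Frzb over these same arrays (below). Its level is therefore not independent of the Frzb pattern. The epithelial levels overlapped only through null 3 (8.726, against 8.733 in control 1), so that epithelial level and genotype are only weakly separable.

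**Figure D3:**
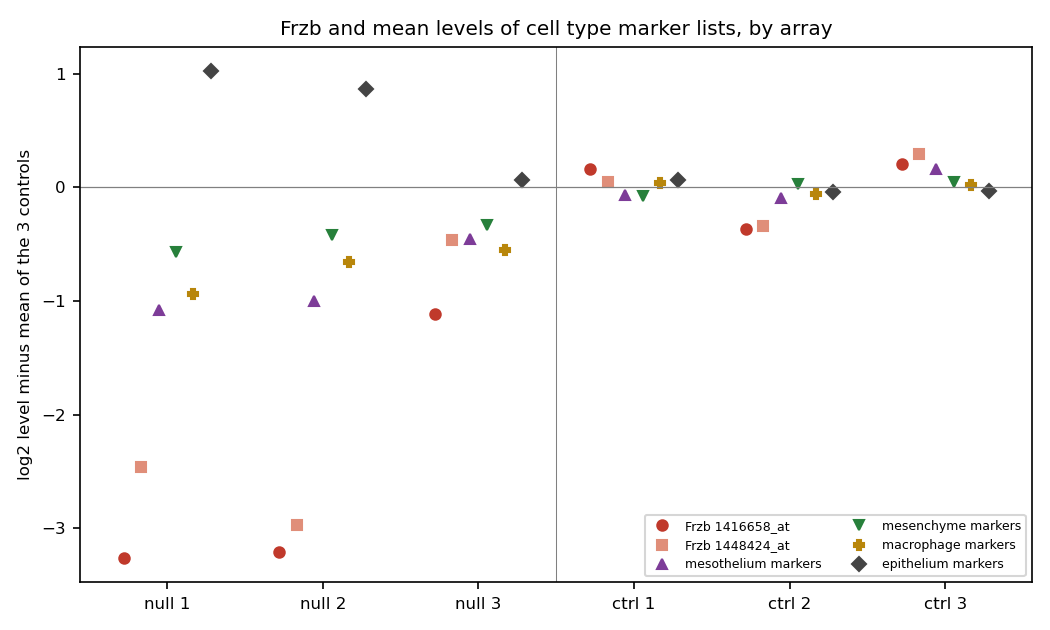
Log2 level minus the mean of the 3 control arrays (vertical axis) of both Frzb probe sets and of the mean of 4 marker lists, in each Hox6 null and control array. In null 1 and null 2 Frzb is lowest and epithelial markers highest; in null 3, where the epithelial mean of 8.73 is close to that of control 1, Frzb, mesothelium, mesenchyme and macrophage markers all lie below 0.

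The genes whose pattern over the 6 arrays was most like that of Frzb were found by the root mean square difference of log2 levels, each gene centred on its own mean. The nearest was Slc40a1, the cellular iron exporter ferroportin, at 0.38 log2 units. It was followed by Gpm6a, a membrane glycoprotein gene (0.44), Pde1a, a calmodulin-dependent phosphodiesterase gene (0.52), Rspo1, a secreted enhancer of Wnt signalling (0.52), and Nwd2 (0.53). Rspo1 read 5.18, 5.48 and 6.81 in null and 7.29, 7.47 and 7.76 in control arrays. Slc40a1 read 7.23, 7.73 and 9.44 in null and 10.16, 9.69 and 10.05 in control arrays. Each has null 1 lowest, null 2 next and null 3 nearest to the controls. Gpm6a and Rspo1 are among the 10 mesothelium markers. With 6 arrays and 18193 genes, likeness of this kind is a description.

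Sfrp1, a frizzled-related protein broadly made by embryonic mesenchyme, was bright, and its probe sets differed little between the groups. Its brightest probe set (1428136_at) read 10.80, 10.92 and 10.91 in null arrays, against 11.13, 11.14 and 11.09 in control arrays. All null arrays were below all controls, by little. The difference was -0.24 ± 0.10 (SE), with a 95% interval of -0.47 to -0.014, which is 1.18-fold lower, and the adjusted p was 0.316 over all probe sets (limma). Of its other 4 probe sets, 1460187_at and 1438620_x_at were also lower without overlap, by -0.21 and -0.13, and 1416594_at and 1448395_at both differed by 0.02 (0.025 and 0.023) with overlapping arrays. The 5 probe sets thus differ in sign, and the mean over them differed by -0.11, with an adjusted p of 0.526 (limma over genes). The genes nearest to the pattern of Sfrp1 were Sirt1, Nudt5, Ice2, Inpp5a and Ext1, all within 0.029 log2 units.

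Sfrp2, a frizzled-related protein of embryonic mesenchyme, read 8.99, 9.49 and 8.94 in null and 9.06, 9.46 and 9.37 in control arrays. The groups overlapped, and the difference of -0.16 ± 0.18 (SE) had a 95% interval of -0.59 to 0.27. Sfrp5, known from foregut endoderm, was higher on average on both of its probe sets. The first (1423023_at) read 5.82, 5.16 and 5.64 in null and 5.19, 5.40 and 5.12 in control arrays, and the second (1436075_at) read 5.54, 5.58 and 5.20 in null and 5.36, 5.10 and 5.05 in control arrays. Both overlapped, and a different null array was the lowest on each. Their differences were 0.31 (95% interval -0.12 to 0.74) and 0.27 (-0.076 to 0.61), with adjusted p of 0.451 and 0.421 (limma, all probe sets). Sfrp4 was dim, at 3.59, 3.21 and 3.0 in null and 3.0, 3.09 and 3.02 in control arrays, and 11.8% of all probe sets were dimmer.

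Among the Dickkopf genes, Dkk2, an Lrp5 and Lrp6 ligand, read 5.66, 6.53 and 7.01 in null arrays, against 6.66, 7.17 and 7.17 in control arrays. Null 1 and null 2 were below all controls, and null 3 was within the control range. The difference was -0.60 ± 0.33 (SE), with a 95% interval of -1.37 to 0.16, and the adjusted p was 0.419 over all probe sets (limma). Null 1 held much of it: the difference was -0.23 without that array and -0.90 without null 3. Without both null 1 and null 2 it was 0.0043, and with the epithelial level as a covariate it was 0.17.

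Dkk1 read 3.14, 3.25 and 3.46 in null arrays, against 3.53, 5.10 and 3.05 in control arrays, on its brighter probe set (1420360_at). Control 2 stood far above every other array, and the other 5 arrays lay at 3.05 to 3.53. The difference of -0.61 ± 0.47 (SE) had a 95% interval of -1.70 to 0.49, and without control 2 it was -0.0027. The other probe set (1458232_at) lay at 2.29 to 3.18 in null and 2.24 to 3.08 in control arrays, a range in which 5.17% of all probe sets were dimmer.

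Dkk3 had overlapping groups and differences close to 0 on both probe sets. The first (1417312_at) read 6.58, 6.74 and 7.19 in null and 6.69, 6.82 and 7.02 in control arrays, and the second (1448669_at) 5.61, 5.25 and 5.72 in null and 5.34, 5.65 and 5.72 in control arrays. The differences were -0.0052 (95% interval -0.42 to 0.41) and -0.045 (-0.43 to 0.34). These intervals do not reach a change of 0.5 log2 units in either direction.

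Wif1, the Wnt inhibitory factor gene, was the dimmest gene of the set. It read 2.28, 2.43 and 2.81 in null arrays, against 2.41, 3.41 and 3.54 in control arrays. Control 1 lay among the null arrays and the other 2 controls above them. The difference was -0.61 ± 0.30 (SE), with a 95% interval of -1.32 to 0.086, and the adjusted p was 0.378 over all probe sets (limma). Of all probe sets 7.64% were dimmer.

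The partners of these antagonists were read from 7 further lists of Wnt genes by role. Of 70 measured genes, 0 passed the test over all genes (0.0715% of all genes did). At an unadjusted p under 0.05 there were 20, of which 7 were lower and 13 higher in null pancreas (17.0% of all genes in either direction). By mean level 24 were lower and 46 higher, where 44.0% of all genes were lower, and the median difference was 0.090, beside 0.033 over all genes. The same share applies to the counts of lower and higher genes in each list below. Every value in this part is a difference on the log2 scale, with 1 probe set per gene unless called a mean over probe sets.

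Dickkopf receptors were higher on average: Lrp5 read 8.82, 8.65 and 8.71 in null and 8.42, 8.31 and 8.53 in control arrays, a difference of 0.31 ± 0.10 (SE; adjusted p = 0.232, limma). Lrp6 differed by 0.18 ± 0.09 (SE) and Kremen1 by 0.19, while Kremen2 was not analysed here. Of 14 genes listed as other extracellular inhibitors, 10 were higher on average and 4 lower. Not all of the 14 are secreted inhibitors. Ndp (0.12), for 1, encodes a Frizzled ligand, so these counts are of listed genes. Dkk4 differed by 0.31, at 3.65 to 4.72 in all arrays, and Dkkl1 by 0.36. Draxin, an inhibitor that binds Lrp6, differed by 0.52, Serpinf1 by 0.26 and Tinagl1 by -0.26. The lowest adjusted p of the 14 was 0.283 (limma). Of these 14, the largest difference on the log2 scale was that of Draxin.

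Wnt ligands, which the frizzled-related proteins and Wif1 bind, differed in both directions. Of 19, 5 were lower and 14 higher on average, with a median of 0.10. Of these 19, Wnt5b had the lowest difference, -1.02 ± 0.30 (SE; adjusted p = 0.204, limma). It read 7.03, 7.51 and 8.26 in null and 8.56, 8.42 and 8.87 in control arrays, without overlap. Wnt7b, an epithelial ligand, read 8.0, 7.81 and 7.07 in null and 6.55, 6.46 and 6.72 in control arrays, a difference of 1.05 ± 0.23 (SE; adjusted p = 0.158, limma). Wnt5a, a mesenchymal ligand, differed by -0.65 ± 0.16 (SE), and Wnt8b, at 3.52 to 4.58 in all arrays, by 0.56. As means over all probe sets of a gene, Wnt7b differed by 0.76, Wnt5a by -0.39 and Wnt8b by 0.51. Of the genes for Wnt secretion, the carrier Wls differed by -0.52 ± 0.13 (SE) and the acyltransferase Porcn by 0.27. The mean over all probe sets of Wls differed by -0.34.

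Of the 10 Frizzled receptor genes, 6 were lower and 4 higher on average. Fzd1 read 8.30, 8.58 and 8.56 in null and 8.95, 9.23 and 9.13 in control arrays, a difference of -0.62 ± 0.12 (SE; adjusted p = 0.144, limma). Fzd3 differed by 0.38 and Fzd5 by 0.87, with Fzd5 at 7.79, 7.58 and 8.71 in null and 7.18, 7.23 and 7.07 in control arrays, so that here null 3 was the farthest from the controls. As means over all probe sets, Fzd1 differed by -0.65, Fzd3 by 0.25 and Fzd5 by 0.85. Of 6 other receptors and polarity genes, Vangl2 differed by 0.40, Ror2 by 0.10 and Ptk7 by 0.085.

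Targets of beta-catenin signalling had a median difference of 0.0053 over 16 genes, of which 10 were higher and 6 lower on average. The receptor ligase gene Znrf3 differed by 0.42 ± 0.14 (SE), the cell cycle gene Ccnd1 by 0.28 ± 0.11 and the Dishevelled antagonist gene Nkd2 by -0.35 ± 0.12, with adjusted p of 0.238, 0.268 and 0.241 (limma). As means over all probe sets, Znrf3 differed by 0.28, Ccnd1 by 0.39 and Nkd2 by -0.17. Without null 3, Wnt7b (1.32), Fzd1 (-0.66), Fzd3 (0.49), Fzd5 (0.53), Wls (-0.65) and Znrf3 (0.54) passed, as Frzb did, in a fit in which 1536 genes (8.44%) passed instead of 13. Wnt7b also passed with array weights (1.13, adjusted p = 0.0420, limma), and Fzd5 without both null 1 and null 2 (1.55, adjusted p = 0.0240, limma), where 0.385% of all genes passed.

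**Figure D4:**
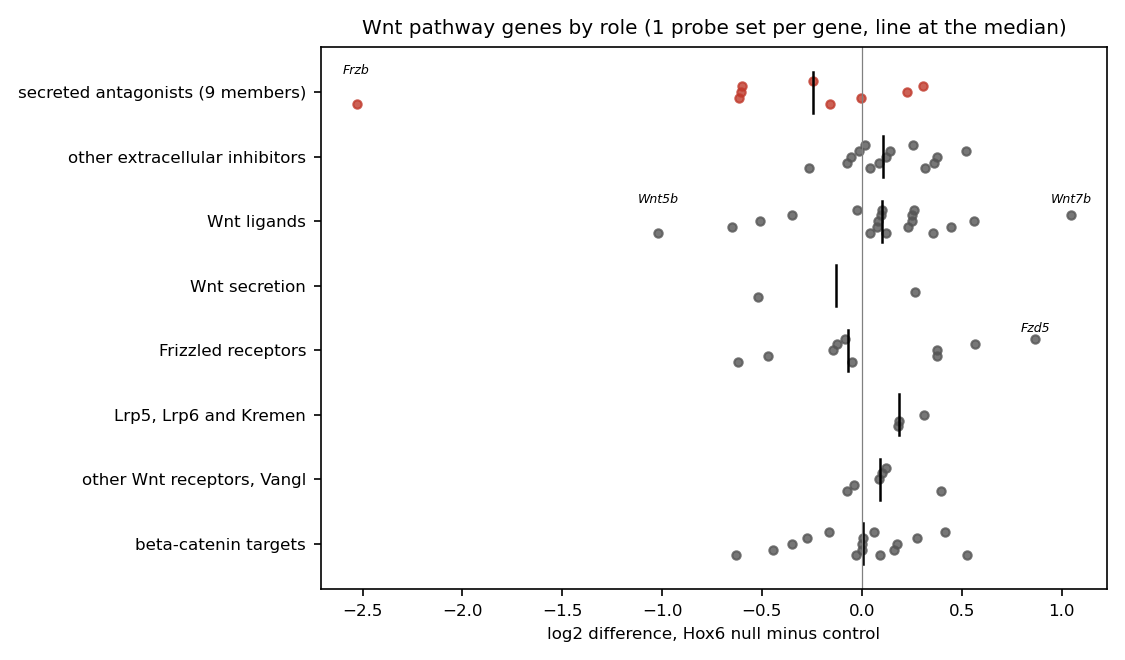
Log2 difference, Hox6 null minus control (horizontal axis), of each measured Wnt gene by role, 1 probe set per gene, with the 9 antagonists in red and a vertical line at each list's median. Frzb, at -2.53, lies farther from 0 than any other gene shown, and the list medians lie between -0.24 and 0.19.

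**Figure D5:**
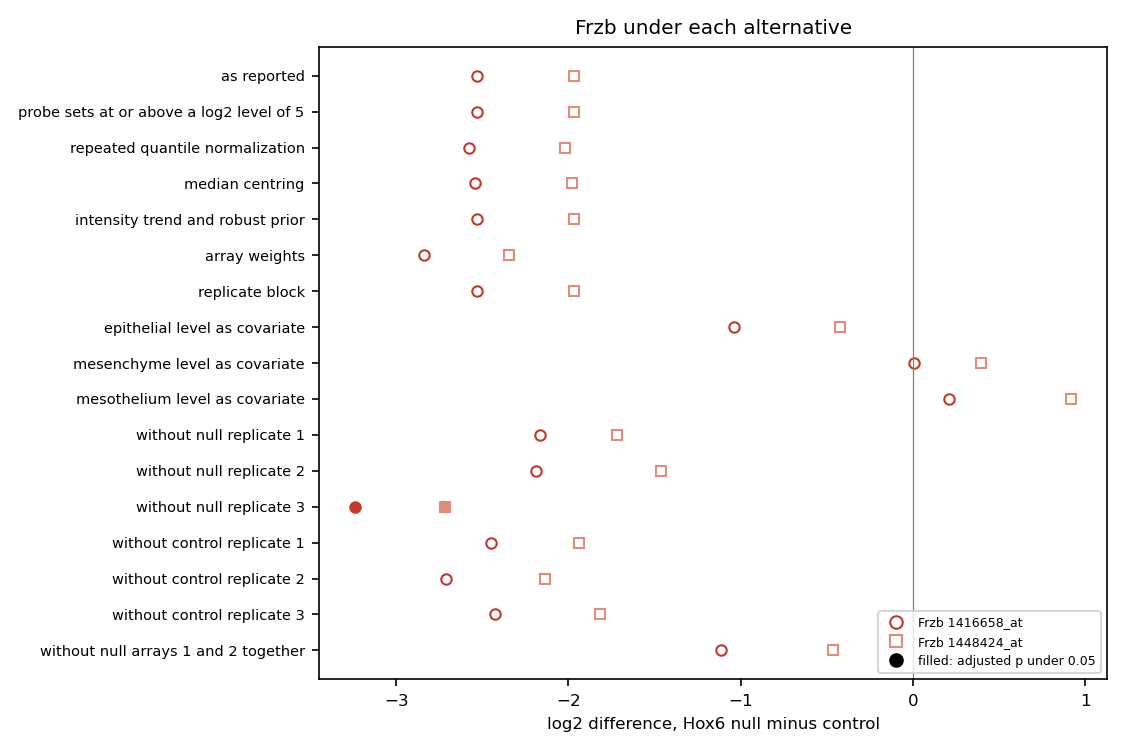
Log2 difference, Hox6 null minus control (horizontal axis), of both Frzb probe sets as reported and under each alternative; filled markers have an adjusted p under 0.05 (limma). The differences stay between -3.24 and -0.42 except with the mesenchyme or mesothelium level as a covariate, where they lie between 0.0051 and 0.92.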

How the data were processed

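The authors deposited 1 table of log2 expression values for 45101 probe sets on 6 arrays. The submitters' processing notes name RMA, affy and limma, without versions; RMA corrects background, normalizes quantiles between arrays and summarises probes. No detection calls were used. Array medians were 5.97 to 6.02. No fold changes or p-values of the authors were used.

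Each sample's group came from its title. After 64 array controls were left out, genotype was the single term in limma 3.58.1 (lmFit and eBayes, R 4.3.3), two-sided, with Benjamini-Hochberg adjustment over all 45037 probe sets, and again over 18193 genes, each represented by its brightest singly annotated probe set. With 3 against 3 arrays an exact permutation test cannot go below 0.1, so p-values come from limma. The fit was also run on simulated data with independent noise of equal spread in both groups, unlike the more variable null arrays here.

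The text names all members, the targeted Hox genes, up to 3 genes per Wnt list by smallest p, 5 genes most like each member with an unadjusted p under 0.05, and marker lists. Dkk4, Dkkl1 and Ndp are named for their family or role, and Wnt5b for the size of its difference. Members and lists were chosen with earlier results of these data known. Promoter sequences are RefSeq's (GRCm38.p6). Filter, normalization, variance prior, array weights, replicate block, probe set choice, covariates and single arrays were varied.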

Additional observations from a re-analysis of the deposited data

How the results depend on the processing

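The fits were repeated under 18 alternatives, 2 of them chosen after seeing the data (the mesothelium covariate and leaving out null 1 and null 2 together). With 3 arrays per group, intervals are wide, and Wif1 and Sfrp4 are dim (7.64% and 11.8% of all probe sets were dimmer). At the level of probe sets, member values kept their direction and their side of the threshold in 228 of 276 fits, 2 fits (both Frzb probe sets without null 3) newly passed, and 46 had the other sign, 27 of these with a covariate; the cause was not tested. In the fits over genes, Frzb newly passed with array weights (adjusted p = 0.0338) and without null 3 (0.00541, limma). Of 375 fits of the other named genes, 354 kept both, 8 newly passed and 13 had the other sign. The filters removed dim probe sets: 8 of 17 member probe sets were at or above the median level and 13 at or above a log2 level of 5.

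Of all probe sets 1 passed (limma). The count was 16 among probe sets at or above the median level, 0 after repeated quantile normalization, 63 with an intensity trend and robust prior, 41 with array weights, 8 with the epithelial covariate, 0 with the mesenchyme or mesothelium covariate, 23 without null arrays 1 and 2, and 0 to 1902 when each array was left out, the highest without null 3. Of genes 13 passed, and the counts were 37 at or above the median level, 20 at or above a level of 5, 1 after repeated quantile normalization, 8 after median centring, 74 with the trend and robust prior, 155 with array weights, 0 with the mesenchyme or mesothelium covariate, 70 without null arrays 1 and 2, and 0 to 1536 when each array was left out (1536 without null 3, 2 without control 1, 0 without each of the other 4). Where no gene or probe set passed, 1609 to 3030 genes and 3865 to 5966 probe sets had an unadjusted p under 0.05 (limma). Of the 17 member probe sets 0 to 2 passed when each array was left out.

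With the replicate block, 0 genes and 0 member probe sets passed, and Frzb kept its difference of -2.53 (adjusted p = 0.200, limma, all probe sets). The deviations of same-numbered arrays correlated at 0.14, 0.0049 and 0.062, and 5 of 6 arrays, all but control 2, correlated best with their own number, a hint from the data and not from the design; as 2 of the 3 correlations are under 0.1, the arrays are taken to share only a number.

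Values with the other sign, on the log2 scale, were as follows. With the epithelial covariate they were -0.0089 (Sfrp5, second probe set), -0.029 (Serpinf1), -0.091 (Sfrp4), 0.16 and 0.41 (Dkk3), 0.17 (Dkk2) and 0.65 (Dkk1, second probe set). With the mesenchyme covariate they were 0.0051 and 0.39 (Frzb), 0.18 and 1.56 (Dkk1), 0.21 (Sfrp2), 1.02 and 0.33 (Dkk3), 1.04 (Wif1), 1.76 (Dkk2), -0.032 and -0.41 (Sfrp5), -0.57 (Sfrp4), -0.046 (Ptk7), -0.085 (Ccnd1), -0.11 (Wnt7b), -0.28 (Kremen1), -0.30 (Znrf3), -0.35 (Serpinf1) and 0.89 (Hoxb6). With the mesothelium covariate they were 0.21 and 0.92 (Frzb), 0.22 (Wif1), 0.78 and 0.37 (Dkk3), 0.70 (Dkk2), 0.92 (Dkk1, second probe set), -0.24 (Sfrp5, second probe set), -0.32 (Sfrp4), -0.011 (Znrf3), -0.026 (Ccnd1), -0.26 (Serpinf1) and 0.40 (Hoxb6). Without null arrays 1 and 2 they were -0.042 (Sfrp4), 0.0043 (Dkk2), 0.35 and 0.15 (Dkk3), 0.56 (Dkk1, second probe set) and -1.5e-05 (Serpinf1). Array weights gave -0.0014 (Sfrp1, 1416594_at) and repeated quantile normalization 0.014 (Dkk3, 1417312_at). When each array was left out, the ranges were -0.054 to 0.096 and -0.0078 to 0.061 for Sfrp1 1416594_at and 1448395_at, -0.31 to 0.21 for Dkk1 1458232_at, and -0.18 to 0.12 and -0.16 to 0.095 for Dkk3 1417312_at and 1448669_at.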
